A study of Mus musculus with 391 samples.

Results

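Toll-like receptors and the NOD proteins detect conserved microbial and nucleic acid structures and switch on inflammatory gene expression. The genes described here are 10 of the 56941 genes of the deposited count table, chosen by name: 7 Toll-like receptors (Tlr1, Tlr2, Tlr3, Tlr4, Tlr7, Tlr9 and Tlr13), Cd14, Ly86 and Nod1. All 10 were found in the table and all 10 had reads. The cells came from dissociated vessel fragments of adult mouse brain, sorted into plates and profiled by Smart-seq2, which reads whole transcripts and tags no molecules. The labels place 280 cells in a microglia class, which the cell table codes MG, and 111 in an endothelial class, coded CP-EC there with no expansion given. Strain, genotype, sex and age beyond adult are not stated, no treatment is named for either class, and no label ties a cell to an animal. With 1 sample per class, differences are described and not tested.

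Levels are in CPM, a gene's reads scaled to a common total of gene reads, pooled over a class unless a single cell is named. A range in parentheses is a 95% interval, exact Poisson for levels, exact conditional binomial for folds and Clopper-Pearson for shares. Since reads are not tagged molecules, these cover counting error only, and they take cells as independent draws. The classes held 47508014 gene reads in microglia-class cells and 21361227 in endothelial-class cells, with medians of 146506 and 174345 per cell. The cells lay on 4 plates, called A to D here from the starts of the column names. Plates A and B held 133 and 147 microglia-class cells with 7 and 10 endothelial-class cells, and plates C and D held 50 and 44 endothelial-class cells alone. Core markers separated the classes: all 15 core microglia genes reached 50 CPM in microglia-class cells against 1 of 15 in endothelial-class cells, and the core endothelial genes did so for 3 of 15 against 15 of 15. The core microglia genes were not at equal levels throughout the microglia class. They summed to 33758 CPM in its border-like, 47211 CPM in its parenchymal-like and 25183 CPM in its MHC class II-high cluster, all described below.

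Tlr1, Tlr2 and Tlr4 act at the cell surface on microbial lipids and lipoproteins, Tlr2 as a dimer with Tlr1 or Tlr6 and Tlr4 with its partner Ly96 (MD-2). Tlr3, Tlr7, Tlr9 and Tlr13 sit in endosomes and read nucleic acids: double-stranded RNA, single-stranded RNA, unmethylated CpG DNA and bacterial ribosomal RNA. Cd14 hands lipopolysaccharide to Tlr4 and supports other Toll-like receptors, and Ly86 (MD-1) is the partner of the Tlr4-like protein Cd180. Nod1 is a cytosolic sensor of peptidoglycan fragments that signals through the kinase Ripk2. Most Toll-like receptors signal through the adaptor Myd88, Tlr3 through Ticam1 (TRIF), and both routes lead to NF-kB and interferon regulatory factors.

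The regions upstream of 3 members are shown because each holds a motif that was searched for: Tlr1, read almost only in microglia-class cells, Tlr2, read in both classes, and Nod1, higher in endothelial-class cells. Each is the 250 bases before the annotated start, 5′ to 3′ on the gene's strand, from the RefSeq table of build GRCm38.p6. Capitals mark GAGGAAGT, the core of the PU.1 motif, in Tlr1, and matches to the NF-kB search pattern in Tlr2 and Nod1. That pattern fixes only its leading G and closing C bases and leaves every base between them free. The Nod1 match is all G and C, and matching so loose a pattern does not make it an NF-kB site.
Tlr1 (chr5:64933559-64933808, minus strand): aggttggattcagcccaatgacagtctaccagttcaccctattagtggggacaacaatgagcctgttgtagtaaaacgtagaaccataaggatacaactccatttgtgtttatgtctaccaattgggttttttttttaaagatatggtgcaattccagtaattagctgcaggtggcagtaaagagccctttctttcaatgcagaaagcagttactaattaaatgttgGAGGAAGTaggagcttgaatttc
Tlr2 (chr3:83841609-83841858, minus strand): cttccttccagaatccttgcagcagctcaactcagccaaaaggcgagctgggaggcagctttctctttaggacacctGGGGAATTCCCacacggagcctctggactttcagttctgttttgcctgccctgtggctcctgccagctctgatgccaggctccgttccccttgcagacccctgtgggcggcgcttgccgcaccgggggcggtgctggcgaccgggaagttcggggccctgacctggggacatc
Nod1 (chr6:54972613-54972862, minus strand): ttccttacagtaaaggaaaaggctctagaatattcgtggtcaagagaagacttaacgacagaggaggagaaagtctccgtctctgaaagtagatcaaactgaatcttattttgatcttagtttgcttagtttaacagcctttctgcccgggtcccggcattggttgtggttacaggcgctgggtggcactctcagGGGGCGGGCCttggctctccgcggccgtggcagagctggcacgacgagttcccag
The PU.1 core lay 23 bases before the Tlr1 start, the overlapping NF-kB matches 173 and 172 bases before the Tlr2 start, and the NF-kB match 55 bases before the Nod1 start. The table held 9 promoters of 7 members (Tlr1 and Nod1 have more than 1), and the motifs were searched on both strands of each. The NF-kB search pattern was in 45.8% of all 32851 promoters and in 3 of the 9 member promoters, a lower share. Those 3 were of Tlr2, Tlr3 and Nod1. The PU.1 core was in 2.44% of all promoters and in 1 member's, and the AP-1 motif TGANTCA was in 6.75% and in that of Tlr9, 58 bases before its start. The interferon response element, in 2.98% of all promoters, and the ETS-IRF composite, in 2.30%, were in 0 of the 9. A match of this kind is a string of letters and not a measured site.

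The microglia class carried most of these transcripts, and Nod1 was the exception. At 4-fold or more, on log2 of CPM + 1, 7 of 10 members were higher in microglia-class cells (Tlr1, Tlr2, Tlr7, Tlr9, Tlr13, Cd14 and Ly86), beside 19.9% of all 14989 genes at 1 CPM or more. Nod1 was the 1 member at least 4-fold higher in endothelial-class cells, beside 11.7% of those genes, and Tlr3 and Tlr4 lay between. The median log2 ratio, microglia over endothelial, was 5.38 over the members and 0.36 over all genes.

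**Figure D1:**
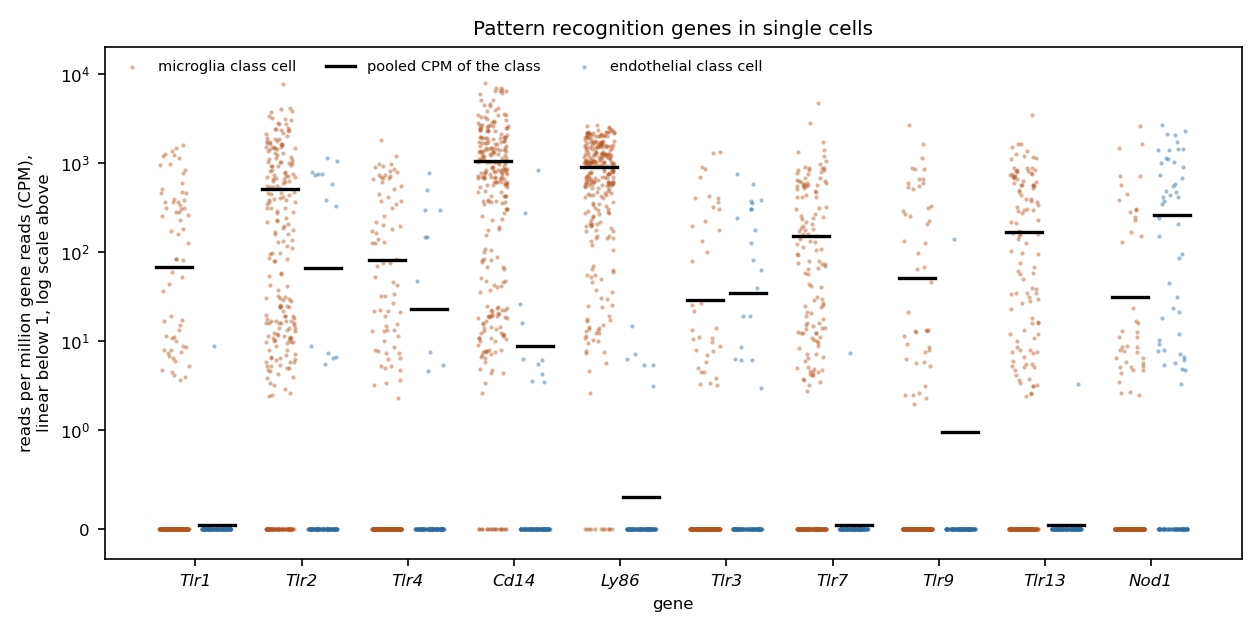
CPM of each gene in every cell (vertical axis, linear below 1 and logarithmic above), microglia-class cells to the left and endothelial-class cells to the right of each gene. Black bars are the pooled CPM. Ly86 and Cd14 form a band of cells near 1000 CPM in microglia-class cells. Most receptors have many microglia-class cells at 0 and the rest spread from a few CPM to above 1000 CPM. Nod1 has more cells above 100 CPM in the endothelial class.

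The co-receptors were the most abundant members. Cd14 had 1055 CPM (1046 to 1065) in microglia-class cells, with a lowest cell at 0, a median of 686 and a highest of 7967 CPM, against 8.75 CPM (7.54 to 10.1) in endothelial-class cells, whose median cell was at 0 and highest at 824 CPM. Ly86 had 912 CPM (904 to 921) in microglia-class cells, with cells between 0 and 2640 CPM around a median of 781, against 0.328 CPM (0.132 to 0.675) in endothelial-class cells, where 7 reads fell in 6 cells. The ratios were 121-fold (104 to 140) for Cd14 and 2784-fold (1351 to 6924) for Ly86. Ly86 was read in 96.1% of microglia-class cells and varied least among them, with a coefficient of variation of 0.792, against 1.31 for Cd14. A single cell of plate A held 53.5% of the Cd14 reads of endothelial-class cells, and without it their level was 4.10 CPM.

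Among the surface receptors, Tlr2 had at least 1 read in most microglia-class cells, and Tlr1 and Tlr4 in a minority. Tlr2 had a read in 207 of 280 microglia-class cells but 10 or more reads in 121. Tlr2 had 511 CPM (505 to 517) in microglia-class cells, from 0 over a median of 23.0 to 7604 CPM in single cells, against 65.4 CPM (62.1 to 69.0) in endothelial-class cells, whose median was 0 and highest cell 1142 CPM. Its ratio was 7.81-fold (7.40 to 8.25). Tlr4 had 82.1 CPM (79.6 to 84.8) in microglia-class cells and 23.3 CPM (21.3 to 25.4) in endothelial-class cells, a ratio of 3.53-fold (3.21 to 3.88), with a median cell at 0 in both and highest cells of 1828 CPM in the microglia class and 778 CPM in the endothelial class. A single cell of plate D held 36.2% of the endothelial-class Tlr4 reads; without it that level was 15.0 CPM and the ratio 5.47-fold (4.88 to 6.16), and with cells thinned to equal depth the log2 ratio was 2.07, so Tlr4 passed 4-fold in both. Tlr1 was read almost only in the microglia class: it had 68.4 CPM (66.1 to 70.8), with reads in 65 of 280 microglia-class cells, and 1 read in all 111 endothelial-class cells, a ratio of 1462-fold with an interval of 262 to 57754.

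Of the endosomal receptors, Tlr7 and Tlr13 were the most abundant and Tlr3 alone was at like levels in both classes. Tlr13 had 167 CPM (163 to 171) and Tlr7 152 CPM (149 to 156) in microglia-class cells, against 1 read each in endothelial-class cells, or 0.0468 CPM (0.00119 to 0.261). The highest microglia-class cells had 3478 CPM of Tlr13 and 4690 CPM of Tlr7, and the median cell had 0 of both. Tlr9 had 50.7 CPM (48.7 to 52.7) in 47 microglia-class cells, against 0.983 CPM (0.609 to 1.50) in endothelial-class cells, where all 21 reads came from 1 cell. Tlr3 had 29.3 CPM (27.8 to 30.9) in microglia-class cells and 34.6 CPM (32.2 to 37.2) in endothelial-class cells. It was read in 38 of 280 microglia-class and 20 of 111 endothelial-class cells, and the highest reached 1311 CPM in the microglia class and 755 CPM in the endothelial class, so the classes overlap throughout.

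Nod1 ran the other way. It had 31.1 CPM (29.6 to 32.8) in microglia-class cells, with a median of 0 and a highest cell of 2624 CPM, against 259 CPM (253 to 266) in endothelial-class cells, whose median was also 0 and highest cell 2680 CPM. Its level was 8.33-fold lower (7.87 to 8.83) in microglia-class cells. At least 10 reads of Nod1 were found in 16 of 280 microglia-class cells and in 30 of 111 endothelial-class cells. In the 30 endothelial-class cells the summed core microglia markers had a median of 51.7 CPM, beside 36365 CPM in microglia-class cells, and the summed core endothelial markers a median of 28659 CPM. The same core microglia sum had a median of 97.5 CPM in the 9 endothelial-class cells with 10 or more Tlr2 reads. It was 23.0 CPM in 13 such Tlr3 cells, 11.6 CPM in 6 such Tlr4 cells and 126 CPM in 2 such Cd14 cells. In endothelial-class cells with fewer than 10 reads of the gene, the medians were 42.6 CPM for Nod1, 41.8 for Tlr2, 47.5 for Tlr3, 48.1 for Tlr4 and 45.4 for Cd14. The highest single cell had 902 CPM among the 30 Nod1 cells and 595 CPM among the 9 Tlr2 cells.

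**Figure D2:**
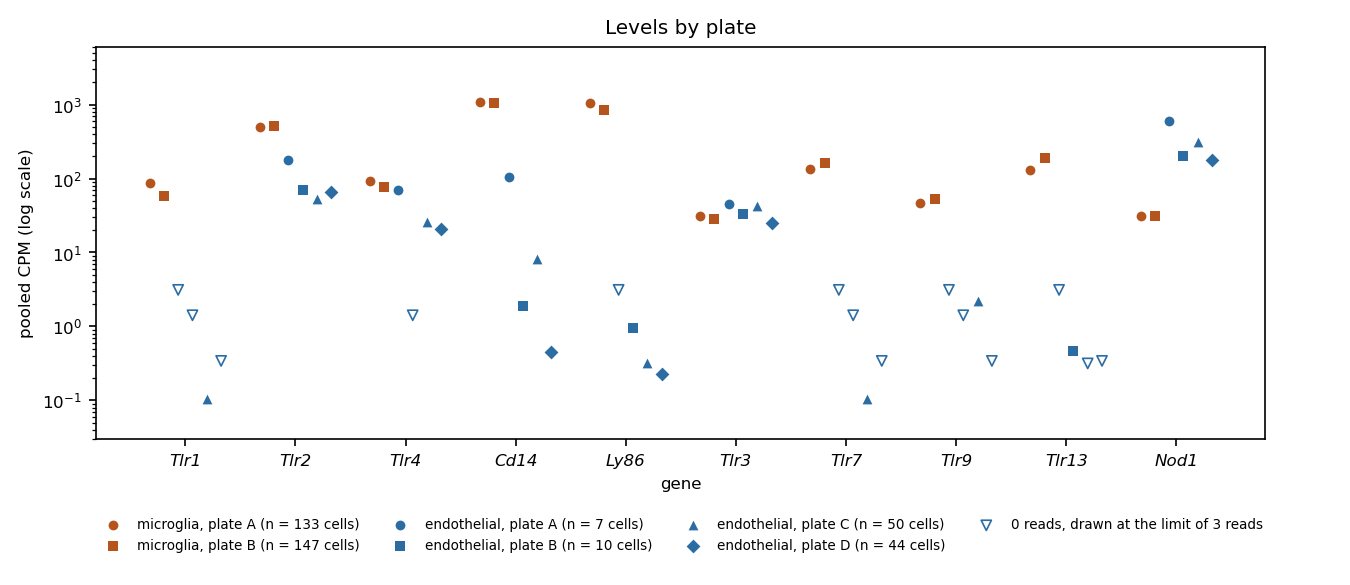
Pooled CPM (log scale) of each gene by class and plate, microglia-class plates first; open triangles mark 0 reads and stand at the CPM of 3 reads. Endothelial-class Nod1 is above microglia-class Nod1 on all plates, with 31.4 CPM on plate A and 31.0 CPM on plate B in the microglia class against 180 to 593 CPM in the endothelial class.

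Within the shared plates the direction of Nod1 and of the 7 microglia-high members held, while the sizes of the Cd14, Tlr2 and Tlr4 ratios did not. On plate A, 6 members were at least 4-fold higher in microglia-class cells (background 46.5% of genes) and 1 was lower (10.9%); on plate B these were 8 (48.4%) and 1 (11.5%). Both plates hold few endothelial-class cells, and the median log2 ratio of all genes was 1.73 on plate A and 1.87 on plate B, so these counts stand against a raised background. Cd14 had 1088 CPM in microglia-class cells against 105 CPM in endothelial-class cells on plate A, 10.4-fold (8.52 to 12.7), and 1038 CPM in microglia-class cells against 1.89 CPM in endothelial-class cells on plate B, 550-fold (215 to 2020). Tlr2 had 502 CPM in microglia-class cells against 179 CPM in endothelial-class cells on plate A, a ratio of 2.81-fold, and 516 CPM in microglia-class cells against 69.3 CPM in endothelial-class cells on plate B, a ratio of 7.45-fold. Tlr4 had 93.7 CPM in microglia-class cells and 70.7 CPM in endothelial-class cells on plate A, all from 1 of 7 cells, and 75.8 CPM in microglia-class cells against 0 reads in endothelial-class cells on plate B, at least 53.6-fold higher. Nod1 was 18.9-fold lower in microglia-class cells on plate A and 6.55-fold lower on plate B.

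Levels of different genes are compared here per kilobase of exon, using the exon lengths of GENCODE M21, an annotation of an older build than the counts. In microglia-class cells Cd14 had 609 CPM per kb, Ly86 251 and Tlr2 170. Tlr13 with 38.8 and Tlr7 with 37.3 CPM per kb followed, then Tlr1 with 20.5. Tlr4 and Tlr9 were near each other at 14.8 and 14.6 CPM per kb, and Nod1 and Tlr3 at 6.13 and 5.64. In endothelial-class cells the order was Nod1 with 51.1 CPM per kb, Tlr2 with 21.7, Tlr3 with 6.65, Cd14 with 5.05 and Tlr4 with 4.19, and the other 5 were below 1.

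**Figure D3:**
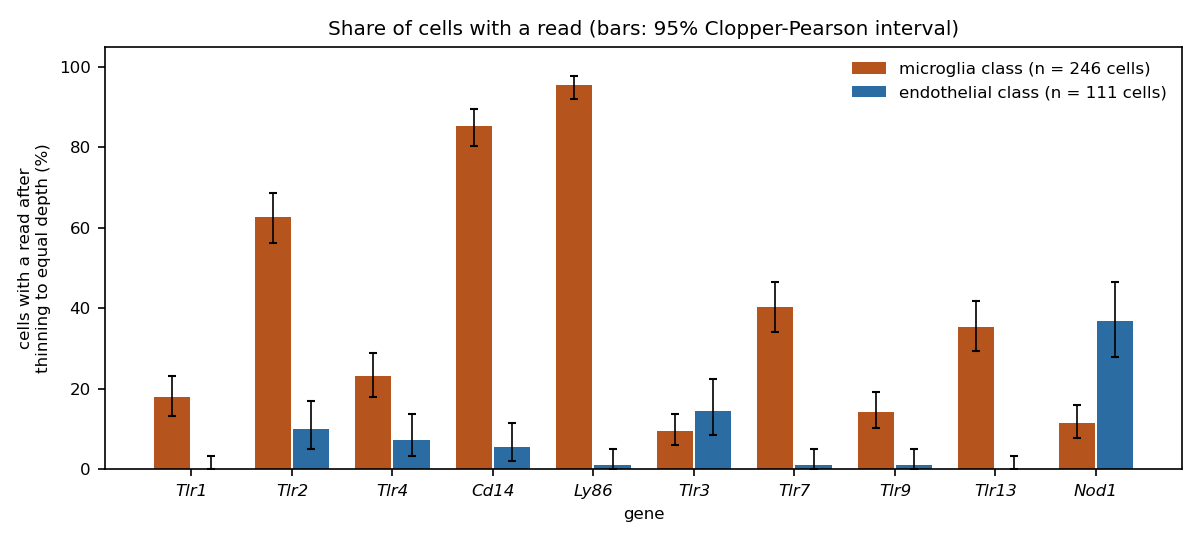
Percentage of cells with at least 1 read of each gene after every cell was thinned to 71000 reads, microglia class left (n = 246 cells) and endothelial class right (n = 111 cells), with 95% Clopper-Pearson intervals. Ly86 and Cd14 stand near the top in the microglia class, and Nod1 is the gene with the clearly higher share in the endothelial class.

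Most receptors were read in a minority of microglia-class cells, and a few cells held most reads. At equal depth, a read was found in 95.5% (92.1 to 97.7) of microglia-class cells for Ly86 against 0.901% (0.0228 to 4.92) of endothelial-class cells, and in 85.4% (80.3 to 89.5) of microglia-class against 5.41% (2.01 to 11.4) of endothelial-class cells for Cd14. Tlr2 was read in 62.6% (56.2 to 68.7) of microglia-class and 9.91% (5.05 to 17.0) of endothelial-class cells. Nod1 was read in 11.4% (7.70 to 16.0) of microglia-class and 36.9% (28.0 to 46.6) of endothelial-class cells. Before thinning the microglia-class shares were 96.1% for Ly86, 93.6% for Cd14, 73.9% for Tlr2 and 15.4% for Nod1. At 10 or more reads they were 82.9% for Ly86, 68.6% for Cd14, 43.2% for Tlr2 and 5.71% for Nod1. The 28 highest cells of the microglia class held 31.2% of the Ly86 reads and 60.2% of the Tlr2 reads, but 99.3% of those of Tlr3 and 99.2% of those of Tlr9. From cell to cell the members were nearly unrelated: over 280 cells the 45 pairwise Spearman correlations ran from -0.08 to 0.17, values that share library and sparse counts.

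Counting the 7 Toll-like receptors among the members in each cell, a microglia-class cell had reads of 2.42 on average and an endothelial-class cell of 0.432, or 2.03 in the microglia class and 0.333 in the endothelial class at equal depth. At least 1 of them was read in 270 of 280 microglia-class cells and in 40 of 111 endothelial-class cells, and 3 or more in 124 microglia-class and 0 endothelial-class cells. In the microglia class 10 cells had none of them and the highest count was 7.

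The microglia class is not uniform, and it was divided into 3 clusters without using the members or the other pathway genes. A border-like cluster of 137 cells had higher border-associated macrophage markers such as Mrc1 and Cd163, a parenchymal-like cluster of 50 cells had Sall1, Slc2a5 and Adgrg1 among its leading genes, and a cluster of 93 cells, given no cell type name, had high MHC class II genes and was led by Adgre5, S100a6 and Ahnak. That last cluster also had higher summed markers of other cell types: the 11 dendritic cell markers summed to 2537 CPM, against 237 CPM in the rest of the microglia class, and the 9 monocyte markers to 885 CPM there against 52.4 CPM in the rest. The 15 core microglia markers summed to 25183 CPM in that cluster against 38330 CPM in the rest. Reads in 50% or more of the cluster were found for 1 dendritic, 1 monocyte and 14 core microglia markers, and their part in the receptor values was not tested. The names are rebuilt here from markers and are not the study's. All 3 clusters had cells on both plates. Values below are descriptions without a test.

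**Figure D4:**
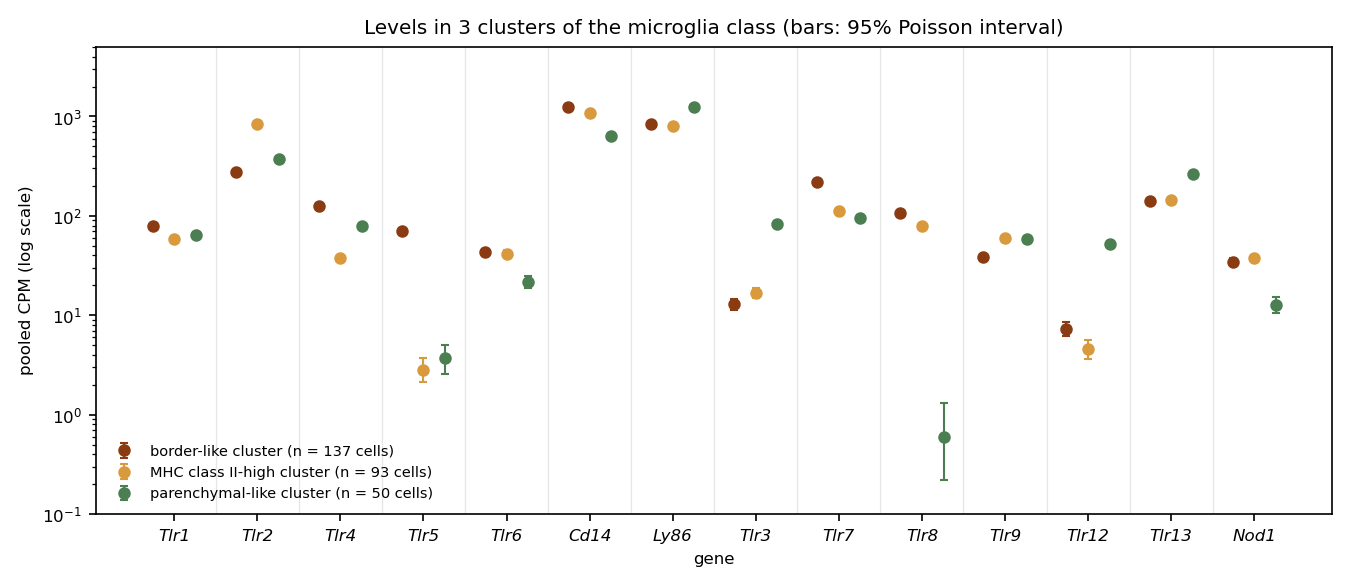
Pooled CPM (log scale) of the members and of 4 further Toll-like receptors in the clusters of the microglia class, border-like left, MHC class II-high in the middle and parenchymal-like right, with 95% Poisson intervals. Tlr3 and Tlr12 are highest in the parenchymal-like cluster, and Tlr8 and Tlr5 are high in the border-like cluster and near 1 and 4 CPM in the parenchymal-like one.

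Tlr3 had its highest level in the parenchymal-like cluster. It had 13.0 CPM (11.4 to 14.7) in border-like cells, 16.9 CPM (15.0 to 18.9) in MHC class II-high cells and 83.5 CPM (77.9 to 89.3) in parenchymal-like cells, with reads in 12 of 137, 9 of 93 and 17 of 50 cells. The border-like level was 6.43-fold lower (5.58 to 7.44) than the parenchymal-like one, and 8.10-fold and 5.53-fold lower on plates A and B. A single cell held 50.2% of the border-like reads, and without it the level was 6.60 CPM. Likewise 1 cell held 69.0% of the MHC class II-high reads, and without it that level was 5.28 CPM.

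At 2-fold or more, 2 members were higher in border-like than in parenchymal-like cells (Tlr7 and Nod1; background 34.1% of 13641 genes) and 1, Tlr3, was lower (21.8%), so the number of higher members lies below the share of all genes. Tlr7 had 219 CPM (212 to 225) in border-like cells and 95.7 CPM (89.8 to 102) in parenchymal-like cells, 2.28-fold. This ratio was 1.07-fold on plate A and 3.72-fold on plate B. Without the border-like cell with most Tlr7 reads, on plate B, that cluster had 175 CPM, less than 2-fold above 95.7 CPM. Without the parenchymal-like cell with most reads, that cluster had 77.4 CPM. Nod1 had 34.7 CPM in border-like and 12.7 CPM in parenchymal-like cells. Of the parenchymal-like reads 96.1% came from 1 cell, and without it that level was 0.512 CPM. The ratio was 1.32-fold on plate A and 43.8-fold on plate B. Among border-like cells of plate B, 1 cell had 560 CPM of Nod1 and another 388 CPM, and no other passed 16.9 CPM. Cd14 was 1.97-fold (1.92 to 2.03) higher in border-like cells, at 1242 CPM against 629 CPM in parenchymal-like cells. Ly86 went the other way, with 846 CPM in border-like and 1239 CPM in parenchymal-like cells, and so did Tlr13, with 140 CPM in border-like and 261 CPM in parenchymal-like cells; both kept that direction on plates A and B.

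By plate the count of higher members was 0 on plate A (background 36.2%) and 4 on plate B (38.9%), and that of lower members was 1 on each (22.6% and 25.8%). MHC class II-high cells had 2 members at least 2-fold higher than parenchymal-like cells (Tlr2 and Nod1; background 34.1%) and 2 lower (Tlr3 and Tlr4; 21.8%). Tlr2 had 837 CPM (824 to 850) in MHC class II-high cells against 378 CPM (366 to 390) in parenchymal-like cells, 2.22-fold, and a median cell of 279 against 30.7 CPM; the ratio was 1.29-fold (1.22 to 1.37) on plate A and 3.17-fold (3.01 to 3.33) on plate B. Of these 4 members, Tlr3 alone was past 2-fold in the same direction on both plates, 5.15-fold lower on plate A and 4.76-fold lower on plate B. Tlr4 had 90.8 CPM in MHC class II-high against 115 CPM in parenchymal-like cells on plate A, and 19.6 CPM in MHC class II-high against 56.4 CPM in parenchymal-like cells on plate B. Nod1 changed side, with 7.82 CPM in MHC class II-high against 33.0 CPM in parenchymal-like cells on plate A, where nearly all parenchymal-like reads were the single cell named above, and 47.8 CPM in MHC class II-high against 0.637 CPM in parenchymal-like cells on plate B. A parenchymal-like cell had reads of 3.32 of the 7 receptors on average, or 2.74 at equal depth, against 2.18 (1.86) in border-like and 2.30 (1.86) in MHC class II-high cells, at median depths of 197266, 122714 and 177520 gene reads.

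At a finer resolution the MHC class II-high cells fell mainly into a cluster of 60 cells, led by Lyz1 and Axl, and a cluster of 32 cells, led by Bhlhe40, Itgb7 and Dpp4; this division is named here because of its receptor values. The 32 cells had 9 Tlr7 reads, or 1.20 CPM (0.551 to 2.29), against 187 CPM (178 to 195) in the 60 cells, and Tlr3 had 0 reads, against 30.0 CPM. Cd14 was at 399 CPM (385 to 414) in the 32 cells and 1700 CPM (1674 to 1725) in the 60, while Tlr2 was at 900 CPM in the 32 cells and 857 CPM in the 60. The 32 cells lay on both plates, 10 on A and 22 on B. In them the core microglia markers summed to 10966 CPM and the dendritic cell markers to 5616 CPM, against 37538 CPM and 265 CPM in the rest of the microglia class, and the part of these in the receptor values was not tested.

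The other Toll-like receptors of the pathway lists also differed between clusters. Tlr8, a nucleic acid receptor of the same endosomal group, had 108 CPM (103 to 113) in border-like cells and 6 reads, 1 in each of 6 cells, or 0.598 CPM (0.219 to 1.30), in parenchymal-like cells. Tlr5, the flagellin receptor, had 70.3 CPM in border-like cells against 3.69 CPM in parenchymal-like cells, 19.1-fold. Tlr12, a receptor for profilin of protozoa, had 7.28 CPM in border-like cells, of which 98.6% came from 1 cell, and 51.6 CPM in parenchymal-like cells from 9 cells. Ly96, the partner of Tlr4, singled out after its values were seen, had 65.8 CPM in border-like cells and 11.9 CPM in parenchymal-like cells. These 4 directions were the same on plates A and B. Tlr6 had 43.3 CPM in border-like and 21.5 CPM in parenchymal-like cells, with 0 parenchymal-like reads on plate B. Tlr11, a relative of Tlr12, had 198 reads in the microglia class, 197 of them in 3 MHC class II-high cells.

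**Figure D5:**
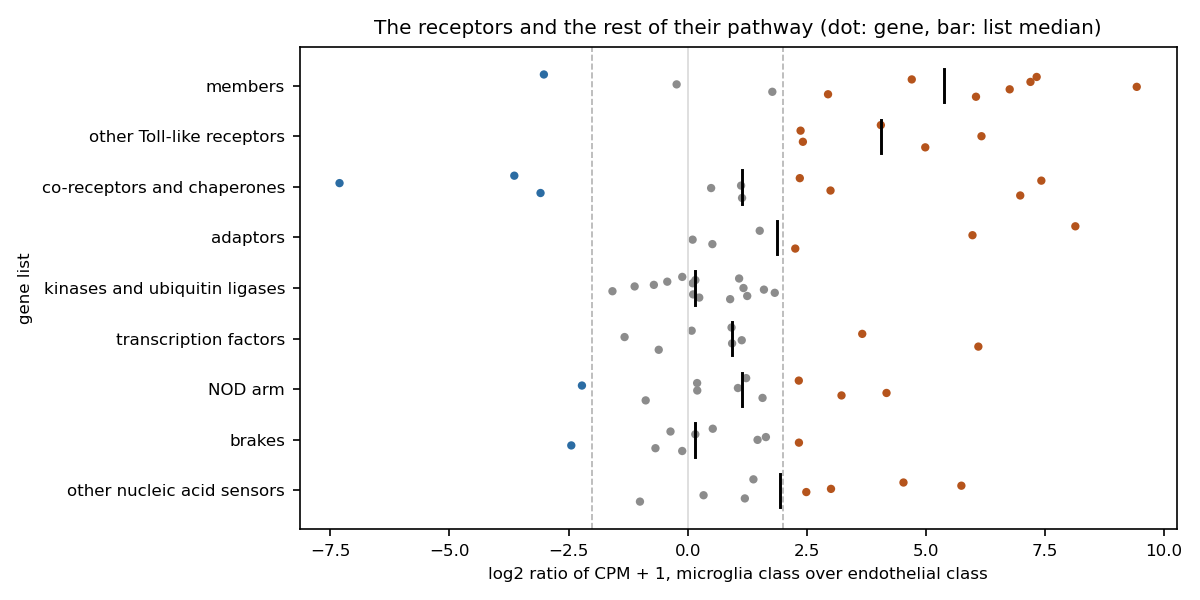
Log2 ratio of CPM + 1, microglia class over endothelial class, for each member and each gene of 8 pathway lists (dots) with the list median (bars); dashed lines mark 4-fold. Most receptors lie to the right, with Tlr3 and Tlr4 within the lines and Nod1 to the left; the 15 kinases and ubiquitin ligases lie within the lines over all plates, and the co-receptor list has genes on both sides.

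Of 72 listed genes 71 were in the table; 22 were at least 4-fold higher in microglia-class cells and 5 in endothelial-class cells (background 19.9% and 11.7%), with 44 between. All 5 other Toll-like receptors were in the first group, but Tlr6 had 51.7 CPM in microglia-class cells against 0 reads in endothelial-class cells on plate A and 30.7 CPM in microglia-class cells against 62.7 CPM in endothelial-class cells on plate B, where 1 of 10 endothelial-class cells held the reads. None of the 15 kinases and ubiquitin ligases passed in either direction over all plates, but within plate A 9 were higher and 0 lower in microglia-class cells, and within plate B 5 were higher and 3 lower, against the raised backgrounds given above. Traf6, a ubiquitin ligase of the Myd88 route, had 58.2 CPM in microglia-class cells against 15.7 CPM in endothelial-class cells and Ikbkb, an NF-kB kinase, 144 CPM in microglia-class cells against 134 CPM in endothelial-class cells. On plates A and B all Traf6 reads were in microglia-class cells, at 45.1 CPM on plate A and 65.4 CPM on plate B, while Ikbkb had 174 CPM in microglia-class against 252 CPM in endothelial-class cells on plate A and 127 CPM in microglia-class against 35.4 CPM in endothelial-class cells on plate B.

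Among adaptors and co-receptors the classes diverged gene by gene. Pik3ap1, an adaptor linking receptors to PI 3-kinase, had 294 CPM in microglia-class cells against 0.0468 CPM in endothelial-class cells; Myd88 had 135 CPM in microglia-class cells against 27.5 CPM in endothelial-class cells and Ticam1, the Tlr3 adaptor, 59.1 CPM in microglia-class cells against 55.0 CPM in endothelial-class cells. The Ticam1 values were on opposite sides by plate, with 56.8 CPM in microglia-class against 1.04 CPM in endothelial-class cells on plate A and 60.4 CPM in microglia-class against 161 CPM in endothelial-class cells on plate B. Unc93b1, which carries endosomal receptors out of the endoplasmic reticulum, had 1866 CPM in microglia-class cells against 233 CPM in endothelial-class cells and was read in 99.3% of microglia-class cells and 45.9% of endothelial-class cells. Cd36, a scavenger receptor that works with Tlr2, had 347 CPM in microglia-class cells against 1.03 CPM in endothelial-class cells, and within the microglia class 647 CPM in border-like and 1.20 CPM in parenchymal-like cells. The 5 genes higher in endothelial-class cells were Lbp, Tril, Lrrc32, Xiap and Sigirr, of which Lbp and Tril are described after their values were seen. Tril, a Tlr3 and Tlr4 accessory protein, had at most 0.358 CPM on a plate in microglia-class cells, against 0 reads on plate A and 171 to 232 CPM on plates B to D in endothelial-class cells. Lbp, which loads lipopolysaccharide onto Cd14, had 0.0596 CPM on plate A and 9.37 CPM on plate B in microglia-class cells, against 0 reads on plates A and B, 103 CPM on plate C and 33.3 CPM on plate D in endothelial-class cells. On plate B Lbp was thus at least 6.6-fold higher in microglia-class cells, with 10 or more reads in 1 of them. Of the endothelial-class cells, 3 on plate C and 3 on plate D had 10 or more Lbp reads. Sigirr, a brake on receptor signalling, had 24.6 CPM in microglia-class cells against 138 CPM in endothelial-class cells. On plate A it had 2.74 CPM in microglia-class against 292 CPM in endothelial-class cells. On plate B it had 36.5 CPM in microglia-class against 348 CPM in endothelial-class cells. Border-like cells had 0.615 CPM and parenchymal-like cells 0.498 CPM, so most microglia-class reads of Sigirr lay in MHC class II-high cells.

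Of the 8 transcription factors, Irf5, which acts downstream of Myd88, and Rel, an NF-kB subunit, were at least 4-fold higher in microglia-class cells, at 424 CPM in microglia-class cells against 5.20 CPM in endothelial-class cells and 336 CPM in microglia-class cells against 25.6 CPM in endothelial-class cells. Rela, the NF-kB subunit common to most cells, had 243 CPM in microglia-class cells against 230 CPM in endothelial-class cells over all plates, but 278 CPM in microglia-class against 4.16 CPM in endothelial-class cells on plate A, 66.9-fold, and 225 CPM in microglia-class against 17.0 CPM in endothelial-class cells on plate B, 13.2-fold. Tnfaip3 (A20), a brake on NF-kB, had 263 CPM in microglia-class cells against 51.3 CPM in endothelial-class cells. Among 8 measured nucleic acid sensors and adaptors outside the family, 4 were higher in microglia-class cells, among them Sting1, the adaptor of DNA sensing, at 261 CPM in microglia-class cells against 31.6 CPM in endothelial-class cells and Aim2, a DNA sensor of the inflammasome, at 72.7 CPM in microglia-class cells against 0.375 CPM in endothelial-class cells.

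In the NOD arm, Xiap, an adaptor of NOD signalling, had 87.3 CPM in microglia-class cells against 410 CPM in endothelial-class cells, but was 1.53-fold lower in microglia-class cells on plate A and near equality on plate B (log2 0.02). Slc15a2 and Slc15a3, peptide transporters that can carry peptidoglycan fragments, had 111 CPM in microglia-class cells against 11.0 CPM in endothelial-class cells and 58.4 CPM in microglia-class cells against 2.29 CPM in endothelial-class cells. Birc3, a ubiquitin ligase of the NOD route, had 100.2 CPM in microglia-class cells against 19.1 CPM in endothelial-class cells. Slc15a2 had 240 CPM in border-like and 0.797 CPM in parenchymal-like cells.

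Few genes followed a member across cells. Over 280 microglia-class cells Gpr34 was among the nearest genes to Ly86 (Spearman rho 0.32), of 2603 genes compared. Over 111 endothelial-class cells the nearest genes were Ktn1 (0.35), Pam (0.33) and Ccdc28b (0.32) for Nod1, and Lnx2 (0.34), Irx3 (0.32) and Nxn (0.31) for Tlr3. For the other members no gene reached 0.3.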

How the data were processed

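The authors deposited raw read counts for each gene in each cell, with no normalization. SAMtools 1.16.1, featureCounts, Subread 1.4.6-p5 and build GRCm39 were used, per the submitters' processing notes; which aligner, annotation and strand setting were used is not given in the sources used here. Cells were assigned to a class through the deposited cell table, whose codes occur as often as the labels; no single column could be matched to a single sample. No cell was left out, no count column was identical to another, and no doublet caller was run; the markers of the opposite class were measured instead.

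Reads were summed per class, plate or cluster and divided by all gene reads there (CPM), with exact Poisson intervals, exact conditional binomial intervals for ratios and Clopper-Pearson intervals for shares. A group with 0 reads was set to 3 reads over the group, and the fold is then a bound. Counts of genes past a fold use log2 of CPM + 1 among genes at 1 CPM or more in either group. This pseudocount understates the ratio of low genes, so the background shares are lower than they would be without it. On simulated data the steps recovered 8-fold changes of genes at 5 CPM or more, while many 8-fold changes under 5 CPM were sized below 4-fold. Every member is above 5 CPM in its higher class. The simulated data were Poisson draws of class sums without spread between cells. They therefore say nothing about genes whose reads lie in a few cells, as here for several members. For equal depth, cells were thinned to 71000 reads, which left out 34 of 280 microglia-class and 0 of 111 endothelial-class cells.

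Clusters came from log CPM over 2000 variable genes, reduced to 20 principal components and joined by 15 nearest neighbours, by Leiden clustering at resolution 0.5 (1.0 for the finer division). The rule for named genes took all members, the other Toll-like receptors, the up to 4 most abundant genes and the most extreme gene of each pathway list, and correlated genes at rho 0.3 or more, up to 3 per member. A gene that this rule names is not reported here. Values within plates for the MHC class II-high cluster, and those without a single cell, were added after seeing the data. Members, lists and rules were chosen with earlier results of these data known. Software: Python 3.11.15, scipy 1.17.1, pandas 2.3.3, scanpy 1.11.5, R 4.3.3 and edgeR 4.0.16 (TMM factors only).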

Additional observations from a re-analysis of the deposited data

Results flagged for a closer look

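Some values lay on opposite sides of equality on plates A and B, which hold both groups. Their counting intervals exclude 1 on each side or, where a group had no reads, the bound lies past 1 and has no interval. The differences between plates were not tested, and intervals from pooled reads do not include the spread between cells. Over the 81 members and pathway genes this was so for 19 in the comparison of microglia with endothelial class, for 15 in that of border-like with parenchymal-like cells and for 22 in that of MHC class II-high with parenchymal-like cells. The values given here are those of genes named by the rule, and within the clusters those of members and other Toll-like receptors.

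Among the members, Tlr4 in border-like over parenchymal-like cells was 0.745-fold (0.660 to 0.841) on plate A and 2.74-fold (2.44 to 3.08) on plate B. In MHC class II-high over parenchymal-like cells, Tlr1 was 1.24-fold on plate A and 0.806-fold on plate B, Tlr9 was 0.34-fold on A and 1.48-fold on B, and Nod1 was 0.237-fold on A and 75.1-fold on B. Tlr6 was 0.59-fold on plate A and at least 93.2-fold higher on plate B, where parenchymal-like cells had 0 reads.

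In microglia-class over endothelial-class cells, Tlr6 was at least 16.6-fold higher on plate A, where the 7 endothelial-class cells had 0 reads, and 0.49-fold on plate B, where 1 of 10 endothelial-class cells held all 133 reads. Of the adaptors and chaperones, Ticam1 was 54.6-fold on plate A and 0.376-fold on plate B, Mavs 54.8-fold on A and 0.34-fold on B, and Hsp90b1 1.12-fold on A and 0.759-fold on B. Of the kinases and ubiquitin ligases, Ikbkb was 0.693-fold on plate A and 3.6-fold on plate B, and Peli1 57.7-fold on A and 0.52-fold on B. Nfkb1 was 1.63-fold on plate A and 0.826-fold on plate B, Tollip 21.5-fold on A and 0.306-fold on B, and Rigi 0.327-fold on A and 4.0-fold on B.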

How the results depend on the processing

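No paired analysis was possible because no test was made and the labels give cells no replicate number; plates A and B hold both classes, and values within them are given instead. Over the alternatives, 6 to 8 members were at least 4-fold higher in microglia-class cells and 1 was higher in endothelial-class cells in each; 1 member was at least 2-fold lower in border-like cells in each. In the comparisons of the classes and of border-like with parenchymal-like cells, no member's ratio past the threshold changed direction. The alternatives were not run for MHC class II-high cells, where Nod1 changed side between plates A and B. Pathway genes higher in microglia-class cells numbered 44 within plate A and 41 within plate B, against 22, and those higher in endothelial-class cells numbered 3 within plate A and 12 where parenchymal-like cells alone were set against endothelial-class cells, against 5. Members at least 2-fold higher in border-like cells, 2 in all, numbered 1 with thinned cells, 0 on plate A only and 4 on plate B only, and, in a setting chosen after seeing the data, 4 without the parenchymal-like cell with most reads of each gene. The cause of these moves was not tested. Among single members' log2 ratios, 67 of the class values and 67 of the cluster values fell outside the counting interval of the pooled value, and 83 and 33 fell inside; a pseudocount of 0.1 CPM changes the scale of low genes itself. With 1 sample per class, 7 and 10 endothelial-class cells on the shared plates and no animal named, variation between animals cannot be measured.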

Other observations

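Receptors and their partners were also counted together in single microglia-class cells, as a description without a test. Tlr1 was read in 65 cells, and Tlr2, its dimer partner, was read in 73.8% of them, beside 73.9% of all microglia-class cells. Ly86 was read in 97.0% of the cells with Cd180, beside 96.1% of all. Tlr4 and its partner Ly96 were read together in 17 of the 37 border-like cells with Tlr4, in 1 of 15 such MHC class II-high cells and in 2 of 23 such parenchymal-like cells; Ly96 was read in 37.2% of all border-like, 16.1% of all MHC class II-high and 14% of all parenchymal-like cells. Unc93b1 was read in all 132 microglia-class cells with Tlr7 and in all 114 with Tlr13, beside 99.3% of the class.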
